A study of Mus musculus with 6 samples.

Results

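Aminoacyl-tRNA synthetases load each tRNA with its amino acid and so supply both translation systems of the cell. The set described here holds the 36 synthetase genes of a fixed list, 20 for cytosolic and 16 for mitochondrial enzymes, whose symbols end in 2. Rows were found by gene symbol among the 23094 rows of the table that carry a gene name. All 36 were found. Aars shares its row with Exosc6 and Hars with Dnd1, so those levels belong to both genes of the row, and Vars stood on more than 1 row, of which that with the highest mean was used.

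The libraries came from CD71+Ter119+ erythroblasts of the fetal liver on embryonic day 13.5, sorted from C57BL/6 mice. CD71 is the transferrin receptor and Ter119 an antigen of the red cell lineage. The labels place 3 libraries in the Tfam KO group and 3 in the Tfam WT group. They name no Cre driver, litter or sex and do not say whether each replicate came from its own embryo, and every p-value below therefore speaks of library-to-library spread alone, which may be technical. Tfam packages mitochondrial DNA and is needed for its transcription.

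Mitochondria translate the mRNAs of their own genome on their own ribosomes, with tRNAs that this genome encodes, while the synthetases that charge them are made from nuclear genes and imported. Erythroblasts make globin in the cytosol and heme partly in the mitochondrion, and therefore rely on both charging systems. Many cytosolic synthetase genes are known targets of Atf4, the transcription factor of the integrated stress response, which binds a composite C/EBP-ATF response element. The comparison asks whether the charging enzymes of either compartment differed when Tfam was deleted.

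The core of that element, TGATGNAA, was searched on both strands of RefSeq promoter windows (build GRCm38.p6) of 300 bases, from 250 before to 50 after the start. These windows are shown because they mark the synthetase genes in which an Atf4 response would be looked for first. The core stood in the windows of 5 of the 12 cytosolic genes with an entry, Aars, Gars, Iars, Tars and Yars, and in 0 of the 14 mitochondrial genes with one. The core was present in 3.97% of all windows in the table and in 2.56% of the genes on tested rows. Of the other cytosolic synthetases commonly listed as Atf4 targets, Eprs and Sars had an entry without the core. Cars, Mars, Nars and Wars had no entry and were not searched. The stretches below run 5′ to 3′ along the gene's strand, with the core in capitals in whichever orientation it lies. Asns and Trib3, targets of Atf4 that make asparagine and an Akt-binding pseudokinase, are added for comparison. They are shown for holding the core. Among the other genes of this response that were searched, Chac1 held it, while Atf4, Atf5, Ddit3 and Sesn2 did not.

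Aars, chr8:111033710-111033878, plus strand: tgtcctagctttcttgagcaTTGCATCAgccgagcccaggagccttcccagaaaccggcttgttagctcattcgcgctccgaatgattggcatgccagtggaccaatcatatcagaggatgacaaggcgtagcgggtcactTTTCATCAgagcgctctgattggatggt
Gars, chr6:55037951-55037998, plus strand: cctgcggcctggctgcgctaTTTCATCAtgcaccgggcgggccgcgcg
Iars, chr13:49682117-49682164, plus strand: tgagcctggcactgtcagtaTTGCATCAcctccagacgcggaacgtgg
Tars, chr15:11399646-11399693, minus strand: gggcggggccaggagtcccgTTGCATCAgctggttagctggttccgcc
Yars, chr4:129189886-129189933, plus strand: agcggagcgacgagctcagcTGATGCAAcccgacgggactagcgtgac
Asns, chr6:7693205-7693252, minus strand: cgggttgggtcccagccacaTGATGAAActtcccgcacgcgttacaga
Trib3, chr2:152344019-152344066, minus strand: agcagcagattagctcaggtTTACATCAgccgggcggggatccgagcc

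Counted with the start as base 1, the cores of Gars, Iars, Tars and Yars began at bases -30, 8, -15 and 4. Aars held a pair, at -112 and 10. A match of these letters is a description of the sequence and does not show that a factor binds there.

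Several facts of the whole series bear on every value below. Levels are RPKM, reads scaled to transcript length and library size. RPKM sums were 423618 to 535013 in the KO libraries and 422534, 461163 and 814665 in the WT libraries, the last in WT replicate 3. No other library reached a correlation above 0.962 with it on the log2 scale, and across the 8261 tested rows with a known transcript length its deviation from the other WT libraries fell with length (Spearman's rho -0.62 across genes). The main counts and fold changes are therefore also given without it. Over the 34 tested synthetases the same rho was -0.27, with -0.11 for the cytosolic and -0.37 for the mitochondrial genes. For KO replicate 3 against the other KO libraries, rho was -0.29 over the 8261 rows. Tfam had 5.92, 7.22 and 6.25 RPKM in the KO libraries, against 7.22, 8.44 and 5.72 in the WT libraries. These values overlapped, and an exact permutation test, two-sided, gave p = 0.7 (at 3 against 3 it cannot go below 0.1), so gene-level Tfam reads do not check the labels, which are used as given. Erythroid markers were abundant, with 3331 to 4681 RPKM of Slc4a1, the band 3 anion exchanger, in KO and 3494 to 4164 in WT. The summed level of 9 macrophage markers was 4.44 to 11.2 RPKM in KO and 11.9 to 18.6 in WT, with Cd163 listed at 0 throughout. The KO libraries lay wholly below the WT libraries for 4 of 6 tested macrophage markers, Cd5l, Marco, C1qb and Csf1r (2.36% of all tested rows). The same held for 1 of 6 erythroid markers, Epor, the erythropoietin receptor (97.7 to 128 RPKM in KO, 215 to 389 in WT). None of these passed the test described below, and their part in the synthetase values was not tested. In sorted bulk cells, fewer cells of a type and less RNA per cell cannot be told apart.

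Cytosolic synthetase mRNAs were abundant, and none passed the test between the libraries labelled KO and WT. Their mean levels spanned 10.1 RPKM for Wars to 171 RPKM for Nars, and all 20 were tested. The median level over the 20 genes was 33.0, 37.4 and 40.0 RPKM in KO replicates 1, 2 and 3 and 35.6, 38.7 and 50.6 in WT replicates 1, 2 and 3. The highest of these medians was that of WT replicate 3 and the lowest that of KO replicate 1, and the groups overlapped. Within each pair of equally numbered libraries, which are treated as pairs on the grounds given under the processing, the KO median was the lower one. Single genes were lower in KO in all 3 pairs in 10 of 20 cases (20.1% of all tested rows), among them Aars, Gars, Hars, Vars and Yars, and higher in all 3 in 1, Eprs (10.8% of all tested rows). With the pairs as a block, 0 cytosolic genes had an unadjusted p under 0.05 in limma. WT replicate 3 held the highest level of the 6 libraries in 11 of the 20 genes, and KO replicate 1 the lowest in 12.

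**Figure D1:**
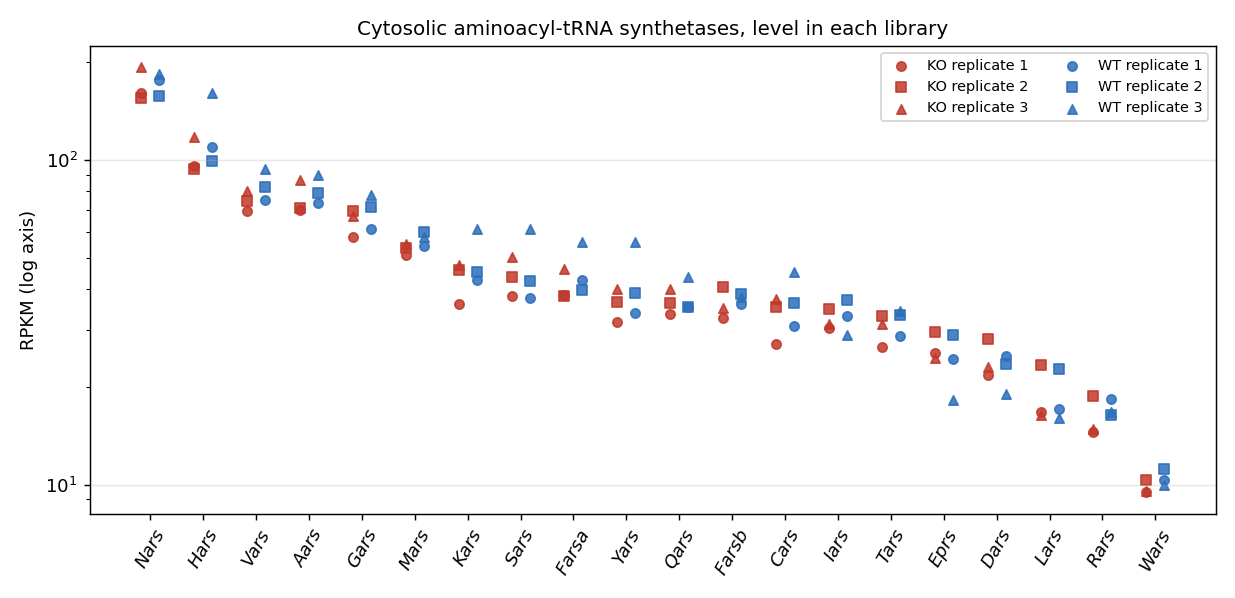
RPKM (log axis) of the 20 cytosolic synthetase genes in each library, ordered by mean level; each point is 1 library, KO in red to the left of WT in blue. In every gene the KO and WT points overlap, and WT replicate 3 (blue triangles) is the highest point in 11 genes.

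The test was limma on log2(RPKM + 1), fitted over all 8302 rows with a mean of at least 1 RPKM. Of the 20 cytosolic genes 0 passed an adjusted p of 0.05, as did 0 of all rows (0%). At an unadjusted p under 0.05 there were 0 cytosolic and 0 mitochondrial genes, against 100 of all rows (1.2%). Fitted log2 fold changes, KO minus WT, lay between -0.24 and 0.17, with 17 genes lower and 3 higher and a median of -0.09, beside a median of -0.02 over all rows, of which 47% were higher. Without WT replicate 3 the range was -0.12 to 0.13 and the median -0.03, again with 3 genes higher, while 44.9% of all rows were. After quantile normalization the cytosolic median was 0.01, so its sign depends on the scaling. The 95% intervals of all 20 genes lay inside -1 to 1 on the log2 scale, and without WT replicate 3 those of 19 of the 20 lay inside -0.5 to 0.5, the exception being Lars.

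The spread over all libraries was described by a ratio. The ratio of the highest to the lowest library, with 1 RPKM added to each, had a median of 1.35 over the cytosolic genes and was under 1.5 in 14 of 20 (70%), against a median of 1.68 and a share of 35.1% among the 4262 rows with a mean of at least 10 RPKM. Without WT replicate 3 the ratio was under 1.5 in all 20, with a median of 1.24, beside 82.1% and a median of 1.31 for those rows. These shares describe the libraries and were not tested.

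The most abundant cytosolic members were Nars, Hars and Vars. Nars, which charges tRNA with asparagine, had 161, 155 and 193 RPKM in the KO libraries and 176, 158 and 184 in the WT libraries. KO replicate 3 was the highest library and KO replicate 2 the lowest, so the WT values lay within the KO range. The log2 fold change was -0.03 (SE 0.19), and 0.02 without WT replicate 3. The row of the histidine enzyme Hars, shared with Dnd1, had 95.8, 94.0 and 118 RPKM in KO libraries, against 110, 99.3 and 161 in WT. WT replicate 3 stood above the other libraries, and the log2 fold change was -0.24 (SE 0.24), the lowest of the cytosolic genes, and -0.03 without that library. Vars, the valine enzyme, had 69.6, 74.8 and 80.1 RPKM in KO libraries, against 75.5, 82.8 and 93.8 in WT, with overlapping groups and a log2 fold change of -0.16 (SE 0.17), or -0.08 without WT replicate 3.

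Beside Hars, Yars and Kars had the most negative values. Yars, the tyrosine enzyme, had 31.8, 36.7 and 40.1 RPKM in KO libraries, against 33.9, 38.8 and 55.9 in WT. Only WT replicate 3 lay outside the KO range, and the log2 fold change of -0.21 (SE 0.22) became -0.01 without it. Kars, whose transcripts encode the lysine enzyme of both compartments, had 36.1, 45.8 and 47.6 RPKM in KO libraries, against 42.6, 45.1 and 61.4 in WT. Again WT replicate 3 was the highest library, and the log2 fold change was -0.19 (SE 0.21), or -0.03 without it. Gars, which likewise serves cytosol and mitochondria with glycyl-tRNA, averaged 64.8 ± 6.26 RPKM in KO libraries and 70.4 ± 8.34 in WT (SD, n = 3 each).

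Some synthetases are also known for roles outside charging. Eprs, which joins the glutamate and proline enzymes in a single protein and is also part of the complex that silences inflammatory mRNAs, had the highest cytosolic fold change, 0.17 (SE 0.20), with 26.5 ± 2.64 RPKM in KO and 23.8 ± 5.36 in WT (SD, n = 3 each). WT replicate 3 was its lowest library, at 18.2 RPKM, and without it the fold change was -0.00. Wars, the tryptophan enzyme, which interferon-gamma induces, was the least abundant, with 9.47, 10.3 and 9.58 RPKM in KO libraries and 10.3, 11.2 and 9.98 in WT. Its groups overlapped through KO replicate 2 and WT replicate 3, and its log2 fold change was -0.09 (SE 0.13). Without WT replicate 3 Wars was the only cytosolic gene in which every KO library lay below both WT libraries, by -0.12 on the log2 scale. Lars, the leucine enzyme, also described as a leucine sensor upstream of mTORC1, averaged 18.8 ± 3.90 RPKM in KO libraries and 18.6 ± 3.59 in WT (SD, n = 3 each).

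By structure, synthetases fall into a class I and a class II that share no fold of the active site. The 9 cytosolic class I genes had a median log2 fold change of -0.10 and the 10 class II genes of -0.09, with 1 gene higher in each. Leaving out WT replicate 3 gave medians of -0.08 and -0.03, with 1 and 2 genes higher. Both chains of the phenylalanine enzyme, a class II tetramer, were below 0, with log2 fold changes of -0.16 (SE 0.19) for Farsa and -0.06 (SE 0.15) for Farsb, or -0.02 and -0.05 without WT replicate 3. Of the enzymes that assemble into the multisynthetase complex, 3 of 8 were higher (Eprs, Dars and Lars) and the median was -0.04. Without WT replicate 3 those 3 genes all had values below 0, from -0.08 to -0.00, 1 of 8 was higher (Qars) and the median was -0.06. The complex is held by scaffold proteins, of which Aimp1 averaged 30.3 ± 5.66 RPKM in KO cells, against 39.8 ± 15.8 in WT, and Aimp2 36.9 ± 1.97 in KO and 44.9 ± 16.5 in WT (SD, n = 3 each). WT replicate 3 held 58.0 and 64.0 RPKM of them, and without it their log2 fold changes were -0.03 and 0.06. The third scaffold, Eef1e1, had a log2 fold change of -0.09 (SE 0.17), or -0.02 without WT replicate 3.

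**Figure D2:**
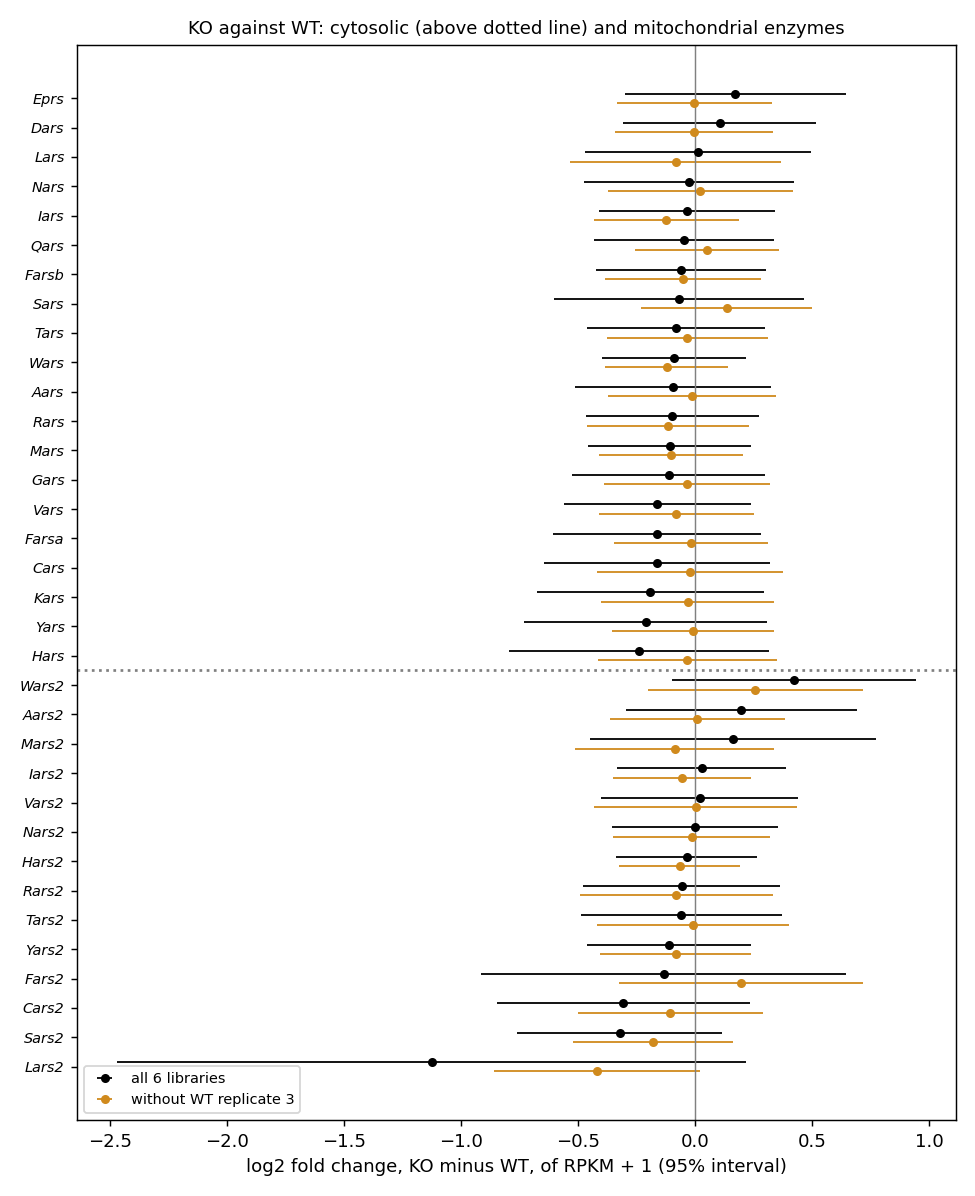
Log2 fold change of RPKM + 1, KO minus WT, of the 34 tested synthetase genes with 95% intervals from limma, for all 6 libraries (black) and without WT replicate 3 (orange); cytosolic genes stand above the dotted line. All intervals include 0, and only that of Lars2 reaches beyond -1 or 1.

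Mitochondrial synthetase mRNAs were scarcer, and none of them passed the test between KO and WT libraries either. Of the 16 genes 14 passed the filter. Pars2 and Ears2, the proline and glutamate enzymes, were below it and were not tested. Pars2 ranged from 0.700 to 0.828 RPKM in KO and from 0.599 to 0.999 in WT. Ears2 had 0.555, 0.770 and 0.344 RPKM in KO libraries, against 0.366, 0.530 and 0.204 in WT, overlapping groups in which KO was the higher of each pair of equally numbered libraries. The median level of the 14 tested genes was 4.48, 6.37 and 6.11 RPKM in KO replicates 1, 2 and 3 and 5.88, 6.55 and 7.29 in WT replicates 1, 2 and 3, again lower in KO within each pair. Of the 14 genes, 1 was lower in KO in all 3 pairs, Lars2 (20.1% of all tested rows). In 2, Aars2 and Wars2, KO was higher in all 3 pairs (10.8% of all tested rows).

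With limma 0 of the 14 passed, and the lowest adjusted p of any synthetase was 0.909. The median log2 fold change was -0.05, with 5 genes higher and 9 lower, and -0.06 without WT replicate 3, with 4 higher. The cytosolic median minus the mitochondrial one was -0.04, and 0.03 without WT replicate 3. With all libraries it was 0.02 at a mean of at least 5 RPKM and 0.08 after quantile normalization. The sign of this difference thus depended on that library, on the filter and on the scaling. Cytosolic fold changes ran from -0.24 to 0.17 and mitochondrial ones from -1.13 to 0.42, and the outer values of the mitochondrial set were those of Lars2 and Wars2. In these genes the KO and WT libraries did not overlap. Every KO library lay above every WT library in 1 of the 34 tested synthetases (2.18% of all rows) and below in 1 (2.36% of all rows).

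**Figure D3:**
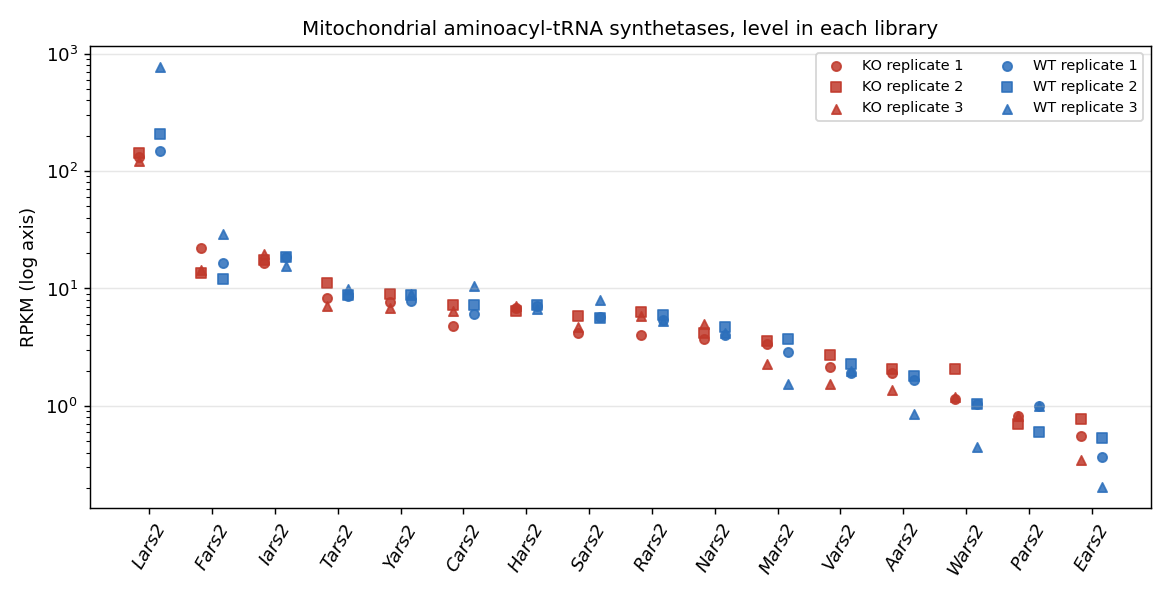
RPKM (log axis) of the 16 mitochondrial synthetase genes in each library, ordered by mean level; each point is 1 library, KO in red to the left of WT in blue. Lars2 lies above 120 RPKM in every library and all other genes below 30, and KO and WT points overlap in every gene except Lars2 and Wars2.

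Wars2, the mitochondrial tryptophan enzyme, had 1.14, 2.07 and 1.18 RPKM in the KO libraries and 1.04, 1.03 and 0.447 in the WT libraries. KO replicate 2 was high and WT replicate 3 low, while the other 4 libraries lay between 1.03 and 1.18. The log2 fold change was 0.42 (SE 0.22, 95% interval -0.10 to 0.94, limma adjusted p = 0.909), and 0.26 without WT replicate 3. It was 0.25 without KO replicate 2, so each of these libraries moved it by more than 1.5 times. Its size also depends on the constant added to RPKM: with 0.1 in place of 1 and all libraries, it was 0.76 (SE 0.42). The gene passed the filter, with a mean of 1.15 RPKM, through its KO values, since the WT mean was 0.838 ± 0.339 (SD, n = 3). KO replicate 2 also held the highest sum of 6 hepatocyte markers, 134 RPKM against 14.5 to 83.6 in the others, and the part of other cell types in this value was not tested.

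Lars2, the mitochondrial leucine enzyme, had 132, 142 and 121 RPKM in the KO libraries and 149, 207 and 769 in the WT libraries. The KO libraries lay close together and below all WT libraries, and WT replicate 3 stood far above the rest. The log2 fold change was -1.13 (SE 0.57, 95% interval -2.47 to 0.22, limma adjusted p = 0.909), and -0.42 without WT replicate 3 (95% interval -0.86 to 0.02). At 5.41 times the median of the other libraries, the level in WT replicate 3 went with 2 other rows chosen after their values were seen. Rn45s, the precursor of ribosomal RNA, had 782, 1143 and 895 RPKM in KO libraries, against 940, 869 and 5526 in WT. The higher of the Cmss1 rows had 996, 1060 and 772 RPKM in KO libraries, against 1021, 1595 and 8687 in WT, while in its other row WT replicate 3, at 12.0 RPKM, lay inside the range of the other WT libraries. The part of ribosomal RNA reads in the level of Lars2 was not tested. By blastn, the coding transcript of Lars2 (3894 bases) shared a stretch of 97 bases with AA474408 at 94.8% identity. Another stretch of 72 bases matched Gm15564 at 98.6%. Rn45s had no sequence in the reference, so the search could not cover it. Whether reads from matching copies entered the level of Lars2 was not tested, and that level is uncertain. Without Lars2 the mitochondrial median was -0.04, and the fold changes of the other 13 tested genes ranged from -0.32 to 0.42.

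**Figure D4:**
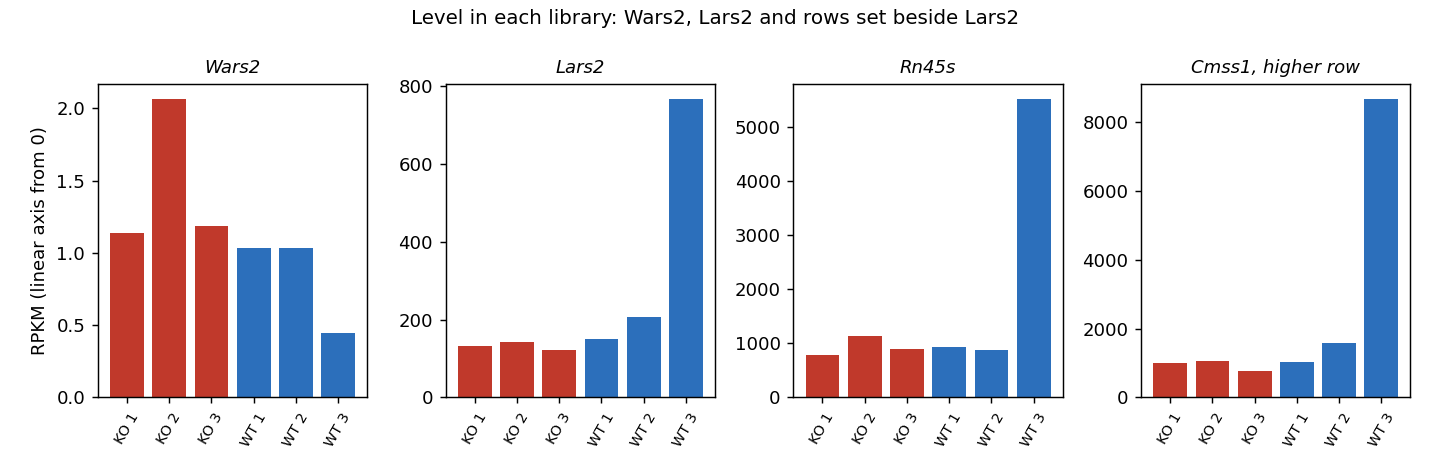
RPKM (linear axes starting at 0) of Wars2, Lars2, Rn45s and the higher Cmss1 row in each library; bars are single libraries, KO in red and WT in blue. WT replicate 3 is the lowest bar for Wars2 (0.447) and by far the highest for Lars2 (769), Rn45s (5526) and Cmss1 (8687).

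Among the other abundant mitochondrial genes, Fars2, the phenylalanine enzyme, had 21.9, 13.5 and 14.3 RPKM in KO libraries, against 16.3, 12.1 and 28.9 in WT. KO replicate 1 and WT replicate 3 were both high, and the log2 fold change was -0.14 (SE 0.33), or 0.19 without WT replicate 3. Iars2, the isoleucine enzyme, had 16.4, 17.5 and 19.8 RPKM in KO libraries, against 18.5, 18.6 and 15.4 in WT, with a log2 fold change of 0.03 (SE 0.15), or -0.06 without WT replicate 3. The serine enzyme Sars2 had 4.14, 5.84 and 4.71 RPKM in KO libraries, against 5.66, 5.64 and 7.91 in WT. KO replicate 2 lay inside the WT range and WT replicate 3 above all others, and the log2 fold change was -0.32 (SE 0.19), or -0.18 without WT replicate 3. Aars2 and Mars2, which charge alanine and methionine, had their lowest level in WT replicate 3 (0.854 and 1.55 RPKM). Their log2 fold changes of 0.20 and 0.16 became 0.01 and -0.09 without that library. Hars2, the histidine enzyme, was the steadiest, averaging 6.79 ± 0.334 RPKM in KO libraries and 6.99 ± 0.287 in WT (SD, n = 3 each).

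Without WT replicate 3, every KO library lay above both remaining WT libraries in 1 of the 34 tested synthetases, Wars2 (5.42% of all rows), and below both in 3, Lars2, Hars2 and Wars (5.9% of all rows). In that fit 0 synthetases had an unadjusted p under 0.05, against 183 of all rows (2.2%), and 1 row in all passed the adjusted threshold (0.012%), which was not a synthetase.

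Setting the enzymes for the same amino acid against each other within a library removes any factor that scales a whole library. Such a pair still carries any deviation that goes with transcript length, as that of WT replicate 3 did over all rows. In 16 of 17 such pairs, counting each chain of the cytosolic phenylalanine enzyme and each activity of Eprs, the cytosolic gene had the higher RPKM in every library. The mean ratio ran from 1.85 for Iars over Iars2 to 60.9 for Eprs over Ears2, with a median of 8.20 over all pairs. The exception was leucine, where Lars over Lars2 was 0.127, 0.164 and 0.136 in KO and 0.115, 0.110 and 0.0209 in WT. The groups did not overlap in this pair, with KO higher, and WT replicate 3 was the lowest library. Wars over Wars2 was 8.32, 4.98 and 8.08 in KO and 9.96, 10.8 and 22.3 in WT, so that KO was lower in every library. In the other 15 pairs the groups overlapped. Because the pairs that separate hold the same Lars2 and Wars2 values as above, they add no independent evidence. How often KO and WT separate in ratios of other genes was not determined.

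**Figure D5:**
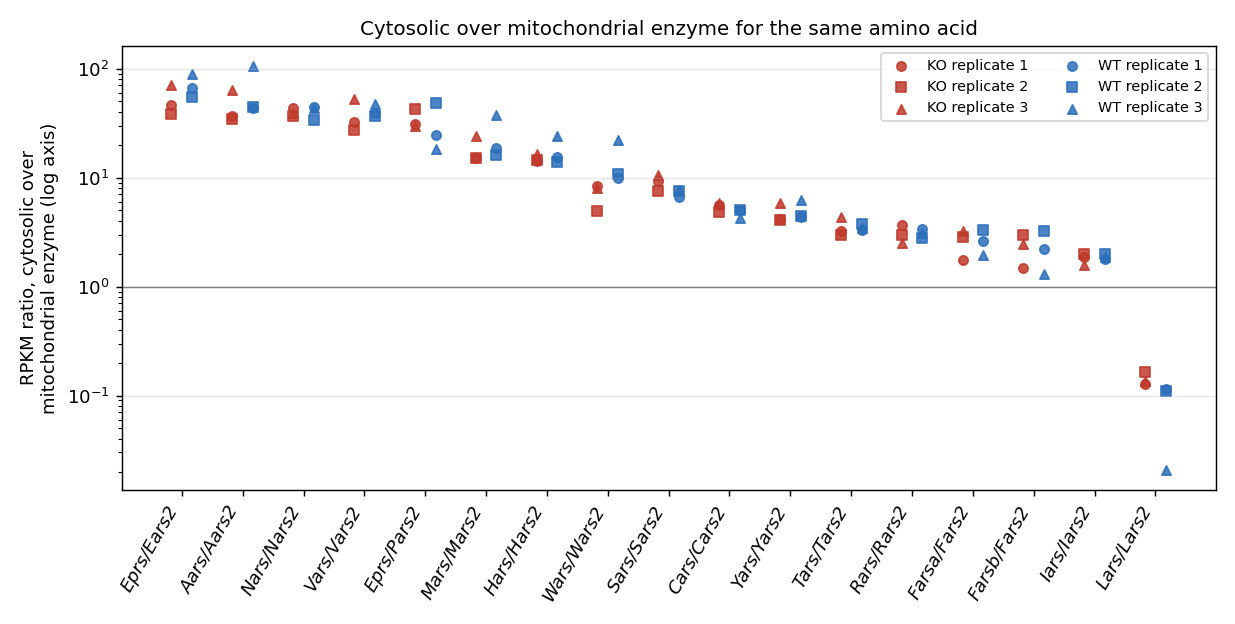
Ratio of RPKM (log axis) of the cytosolic over the mitochondrial enzyme for the same amino acid in each library, ordered by mean ratio; each point is 1 library, KO in red to the left of WT in blue. Only Lars over Lars2 lies below 1, and KO and WT points separate only there and for Wars over Wars2.

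The other genes of the pathway were counted from fixed lists, and none passed the limma test. Mitochondria make glutaminyl-tRNA by first charging it with glutamate and then amidating it, through Qrsl1, Gatb (named Pet112 in the file) and Gatc. With Mtfmt, which formylates the initiator methionyl-tRNA, 2 of these 4 genes were higher and the median log2 fold change was -0.01, and 3 with a median of 0.05 without WT replicate 3. The largest fold changes were those of Qrsl1 (-0.10, SE 0.18) and Mtfmt (0.08, SE 0.16), which were -0.24 and 0.05 without that library. Genes that cut and modify mitochondrial tRNAs had 6 of 12 higher and a median of -0.00, against 4 of 12 and -0.03 without WT replicate 3. Gtpbp3, which with Mto1 modifies the wobble base of some of these tRNAs, was their only gene with separate groups, with 3.15, 3.53 and 3.03 RPKM in KO libraries and 3.69, 4.36 and 4.07 in WT. All KO libraries lay below all WT libraries (2.36% of all tested rows), by -0.25 on the log2 scale with or without WT replicate 3 (SE 0.14 with all libraries). Its unadjusted p in limma with all libraries was 0.109. Mto1 itself had a log2 fold change of 0.02 (SE 0.13). Mitochondrial translation factors had 3 of 8 tested genes higher with a median of -0.16, and 5 of 8 with a median of 0.01 without WT replicate 3. Their largest fold changes were those of Mtif3, an initiation factor (-0.26, SE 0.21), and Tufm, the elongation factor that carries charged tRNA to the mitochondrial ribosome (-0.22, SE 0.20). They were -0.06 and -0.07 without WT replicate 3.

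On the cytosolic side, elongation factors had 1 of 6 genes higher with a median of -0.07, and 4 of 6 with a median of 0.10 without WT replicate 3. Eef1a1, which delivers charged tRNA to the ribosome, averaged 2540 ± 384 RPKM in KO libraries and 2589 ± 448 in WT (SD, n = 3 each). The row shared by Eef1d and Naprt1 (-0.48, SE 0.42) and Eif5a (-0.37, SE 0.35) had the largest fold changes of the list, with 740 and 1490 RPKM in WT replicate 3, and -0.00 and -0.06 without it. Genes of proofreading and of selenocysteine tRNA had 2 of 5 higher with a median of -0.05, and 4 of 5 with a median of 0.06 without WT replicate 3. Their largest values were those of Pstk, the kinase of the selenocysteine route (-0.38, SE 0.24), and Aarsd1, an editing protein related to the alanine enzyme (-0.31, SE 0.30). WT replicate 3 was the highest library for both, and without it the values were -0.13 and 0.01.

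Uncharged tRNA is sensed by the kinase Gcn2 (Eif2ak4), which leads to Atf4. Of the 11 cytosolic synthetases commonly listed as Atf4 targets, 1 had a higher fitted value (Eprs), with a median of -0.09, and 2 without WT replicate 3, with a median of -0.02. The 5 synthetase genes with the element core in their windows had fold changes from -0.21 to -0.03, and the other 7 with an entry from -0.19 to 0.17. These ranges were -0.12 to -0.01 and -0.05 to 0.13 without WT replicate 3. Asns, which shares the core, had 149, 187 and 194 RPKM in KO libraries, against 160, 196 and 223 in WT, with a log2 fold change of -0.12 (SE 0.22), or -0.01 without WT replicate 3. Of the 10 genes of the sensing list 7 were higher, with a median of 0.23, and 6 without WT replicate 3, with a median of 0.08. In the same libraries Atf5, a transcription factor of this response, had 17.5, 18.7 and 15.2 RPKM in KO libraries, against 5.68, 7.97 and 7.84 in WT, and Trib3 had 7.22, 7.80 and 8.37 in KO and 1.85, 3.75 and 3.52 in WT. Sesn2, a stress-induced inhibitor of mTORC1, had 6.99, 6.13 and 6.30 RPKM in KO libraries, against 5.48, 4.99 and 5.90 in WT. In these 3 of the 10 genes every KO library lay above every WT library (2.18% of all rows), with log2 fold changes of 1.16 (SE 0.17) for Atf5, 1.16 (SE 0.22) for Trib3 and 0.21 (SE 0.14) for Sesn2, and none passed the limma test after adjustment over all rows. Atf4 itself had 276, 296 and 393 RPKM in KO libraries, against 324, 326 and 591 in WT, and Ddit3, a pro-apoptotic factor it induces, had 35.5, 38.3 and 44.2 in KO and 34.4, 38.7 and 99.0 in WT. Their groups overlapped, with log2 fold changes of -0.32 (SE 0.31) and -0.37 (SE 0.39), or -0.03 and 0.10 without WT replicate 3. Eif2ak4 averaged 1.58 ± 0.350 RPKM in KO libraries and 1.54 ± 0.154 in WT (SD, n = 3 each). Whether the synthetases and these genes differ in their response was not tested.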

How the data were processed

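RNA of 6 libraries, 3 labelled Tfam KO and 3 Tfam WT, was prepared with a TruSeq kit and read on an Illumina NextSeq, per the labels' protocols. The deposited table holds RPKM values made with TopHat and Cufflinks on build mm9, per the submitters' processing notes; their versions, the annotation and whether strand was used: not given in the sources used here, and reads of paralogs or overlapping genes may be split. RPKM carries no read counts, so the absolute depth is unknown and no counting intervals are given. Of 23119 rows, 25 with a number for a name (0.152% of the RPKM sum) were left out.

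Rows with a mean of at least 1 RPKM (8302) were tested by limma (3.58.1, under R 4.3.3): log2(RPKM + 1) was fitted without a block, the prior variance followed mean level, and p-values were adjusted by Benjamini-Hochberg over all rows, at 0.05; fold changes on this scale understate those of low genes. How often the fit misses a true change in libraries such as these was not tested, so a change may be missed. Group medians are descriptions without a test. Transcript lengths came from GENCODE M21 (99.5% of tested rows), sequence matches from blastn 2.17.0 with a word size of 16, and figures from matplotlib 3.10.9 in Python 3.11.15.

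The members, lists and tests were chosen with earlier results of these data known. A gene of the other mitochondrial aminoacylation genes is not reported here. Values in every library are given for members whose groups did not overlap, for the 3 most abundant and the 3 with the largest fold change of each compartment, and for other genes as the text says; Wars, Ears2, Asns, Atf4, Ddit3, Rn45s and Cmss1 were added with their values known. The promoter stretches were chosen for holding the motif, which goes beyond the rule of up to 4 members.

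Both groups carry replicate numbers 1 to 3. Each library's deviations from its group mean correlated at 0.46, 0.17 and 0.53 between the KO and WT libraries numbered 1, 2 and 3, all above 0.1, so the numbers were taken as pairs; no label states the pairing, and WT replicate 2 correlated more with KO replicate 1 (0.40).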

Additional observations from a re-analysis of the deposited data

How the results depend on the processing

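No synthetase passed under any alternative run: a pseudocount of 0.1, no filter or a mean of at least 5 RPKM, quantile normalization, the replicate block, the transcript length trend removed with or without the block, and each library left out. With the replicate block the lowest adjusted p of a synthetase was 0.715 and 1 synthetase, Wars2, had an unadjusted p under 0.05; the block changed no call. Without WT replicate 1 the count of synthetases at that level was also 1, against 103 of all rows. That gene was Lars2, at -1.60 (SE 0.54). The number of all rows called, 0 with all libraries, ranged from 0 to 2 when 1 library was left out. At an unadjusted p under 0.05 there were 324 rows with the block and 550 with the block and the length trend removed, in place of 100.

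The cytosolic median lay between -0.15 (without WT replicate 1) and 0.01 (quantile normalization), the mitochondrial one between -0.11 (mean of at least 5 RPKM) and -0.01 (without KO replicate 1), and their difference between -0.10 (without WT replicate 1) and 0.08 (quantile normalization). These shifts are smaller than the SD of the medians between single libraries (0.20, 0.19 and 0.13). Leaving out 1 library moves a group mean by less than that library deviates, so this comparison does not show stability. The signs of the cytosolic median and of the difference changed between runs. The sign of the fold change differed for 9 of 34 synthetases after quantile normalization, 8 with the length trend removed, 8 when KO replicate 1 and 9 when WT replicate 3 was left out, and 0 with a pseudocount of 0.1. The cause was not tested. Lars2 ranged from -1.60 to -0.42 and Wars2 from 0.25 to 0.51 when 1 library was left out. With a pseudocount of 0.1 and all libraries Wars2 was 0.76, beside 0.42 in the main fit. Depth per library is unknown, so the precision for genes near 1 RPKM, such as Wars2, Aars2 and Ears2, cannot be stated from counts.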
